A study of Mus musculus with 9 samples.

Results

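The genes described here are 7 genes known from lipid-laden macrophages, Spp1, Gpnmb, Apoe, Lgals3, Fabp5, Cd63 and Cd9, out of 21899 genes in an RNA-seq table of N2a cells. N2a (Neuro-2a) is a mouse neuroblastoma line that the labels list as brain neuroblasts. The 7 rows were found by gene name, and the genes were chosen by the measured levels of Spp1 and Gpnmb, which were very high in the control libraries and near absent after knockdown of Arf1, a small GTPase of the Golgi and of lipid droplets. The comparison of Arf1-deficient with control cells therefore chose the members, and it is given for them as a description without a test.

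The 9 libraries fall into 3 groups of 3. The control cells carried shlucif, a hairpin against luciferase, and the Arf1-deficient cells carried shArf1-1 or shArf1-2, which are 2 hairpins against Arf1. All 3 groups received a hairpin from a lentiviral vector with puromycin resistance, and no further treatment is listed. Each hairpin was given in 1 cell line, and the labels number the libraries of a group without saying whether they came from separate cultures, so that the spread between them may be technical. Library totals ran from 11182479 to 15594615 counts.

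Spp1 (osteopontin) is a secreted matrix protein that binds integrins and CD44. Gpnmb is a transmembrane glycoprotein of lysosomes and melanosomes. Both are known to be strongly made by macrophages and microglia that have taken up lipid or myelin debris, together with the lipid carrier apolipoprotein E, the sugar-binding galectin-3 (Lgals3), the fatty acid chaperone Fabp5 and the tetraspanins Cd63 and Cd9 of endosomes and the cell surface. Cd63, Cd9 and Fabp5 are also made by many cells that are not macrophages.

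The promoters of Spp1 and Gpnmb are shown because these 2 genes moved furthest. Each window runs from 250 bases before to 50 bases after the RefSeq start in GRCm38.p6, on the + strand, at chr5:104434861-104435160 for Spp1 and chr6:49036268-49036567 for Gpnmb, and capitals mark the motif matches.
Spp1: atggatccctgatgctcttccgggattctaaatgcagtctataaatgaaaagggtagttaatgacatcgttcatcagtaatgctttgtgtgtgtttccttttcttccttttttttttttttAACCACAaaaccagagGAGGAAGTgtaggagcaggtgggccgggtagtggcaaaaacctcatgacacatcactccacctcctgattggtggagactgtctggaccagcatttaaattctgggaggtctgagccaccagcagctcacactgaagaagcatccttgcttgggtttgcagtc
Gpnmb: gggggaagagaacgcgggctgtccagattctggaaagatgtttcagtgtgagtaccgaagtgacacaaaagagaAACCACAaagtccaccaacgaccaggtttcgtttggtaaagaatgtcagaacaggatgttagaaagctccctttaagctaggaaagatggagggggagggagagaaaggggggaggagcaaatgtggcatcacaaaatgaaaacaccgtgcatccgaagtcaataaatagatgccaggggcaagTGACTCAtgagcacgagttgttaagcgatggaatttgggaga

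For a look at letters, 5 motifs were searched on both strands, picked with these promoters in view. They were GAGGAAGT, a form bound by the macrophage factor PU.1, TGANTCA (AP-1), AACCACA (Runx), TCATGTG (M-box) and TCACGTGA (CLEAR), and none of the matches overlapped another. The Spp1 window held the Runx letters at bases 122 to 128 and the PU.1 letters at bases 138 to 145. The Gpnmb window held the Runx letters at bases 75 to 81 and the AP-1 letters at bases 259 to 265, the latter after the start. Of 27025 RefSeq promoters of the same length, 3.28% held the PU.1 letters, 7.93% the AP-1 letters, 5.37% the Runx letters, 3.74% the M-box letters and 1.01% the CLEAR letters. RefSeq windows were found for 6 of the 7 genes, and Apoe, Lgals3, Cd63 and Cd9 held no match to any of the 5. Fabp5 had no window here. A match is a description of letters and not a bound site.

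The knockdown itself was checked first. Arf1 stood at 324 ± 6.72 FPKM (SD, n = 3) with shlucif, 128 ± 1.73 with shArf1-1 and 165 ± 6.92 with shArf1-2, and the groups did not overlap. FPKM is a count scaled by gene length and by the library total, so it allows levels of different genes to be compared.

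With shlucif, Spp1 was among the most abundant transcripts of the libraries. Its FPKM was 996, 934 and 875 in the 3 libraries, a mean of 935 ± 60.6 (SD, n = 3) that ranked 25th of 21899 genes. In the shArf1-1 libraries it was 0.339, 0.434 and 0.389, and in the shArf1-2 libraries 0.207, 0.135 and 0.257. These levels rest on 19663 to 22641 counts in each shlucif library and on 3 to 10 counts in each Arf1-deficient library. All 6 Arf1-deficient libraries therefore lay more than 3 orders of magnitude below the 3 control libraries. The 39 counts of the 6 libraries together were 0.0310% of the shlucif level, as a share of library totals (exact 95% counting interval 0.0221 to 0.0424%). Such intervals cover counting error only. In bulk libraries, fewer cells of a type and less RNA per cell cannot be told apart, for this and all further genes.

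Gpnmb behaved alike at a lower level. Its FPKM was 114, 105 and 92.4 with shlucif, a mean of 104 ± 10.8 (SD, n = 3). With shArf1-1 it was 0.0245, 0.0275 and 0.0788, and with shArf1-2 it was 0.0733, 0.0342 and 0.0325. The shlucif libraries held 8201 to 10230 counts and the Arf1-deficient libraries 2 to 8. The 25 counts of the latter together came to 0.0453% of the shlucif level (exact 95% counting interval 0.0293 to 0.0669%). Gpnmb ranked 387th of 21899 genes with shlucif and 13525th by its mean over the Arf1-deficient libraries.

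Lgals3, which also marks damaged lysosomes, was the third gene near 0 counts after knockdown. It had 722, 675 and 638 counts with shlucif, 1, 1 and 7 with shArf1-1 and 2, 4 and 5 with shArf1-2. In FPKM this was 26.8 ± 1.52 with shlucif, 0.111 ± 0.113 with shArf1-1 and 0.141 ± 0.0605 with shArf1-2 (SD, n = 3 each). What remained was 0.492% of the shlucif level (exact 95% counting interval 0.300 to 0.761%), a larger share than for Spp1 or Gpnmb. Spp1, Gpnmb and Lgals3 were the 3 members with at most 10 counts in every Arf1-deficient library, as were 3.26% of the 12448 genes tested, but the choice of members used this contrast and nothing is read from the count.

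Apoe fell less far and remained measurable in every library. Its FPKM was 44.1, 41.5 and 34.9 with shlucif, 3.74, 3.68 and 4.32 with shArf1-1 and 3.03, 4.24 and 3.50 with shArf1-2. The groups did not overlap, with 88 to 144 counts per Arf1-deficient library against 1016 to 1301 per control library. On the log2 scale the Arf1-deficient libraries were lower by a fitted -3.48 with an SE of 0.10, and 9.35% of the shlucif level was left (exact 95% counting interval 8.59 to 10.2%).

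The other 3 members had no such loss. Cd63, a tetraspanin of late endosomes and exosomes, stood at 85.3, 91.8 and 93.0 FPKM with shlucif, at 62.6, 60.4 and 59.9 with shArf1-1 and at 64.0, 65.2 and 63.1 with shArf1-2. It was lower in all 6 Arf1-deficient libraries, with a fitted log2 change of -0.59 (SE 0.05). Fabp5 was 30.7, 29.1 and 27.9 FPKM with shlucif, 29.5, 29.5 and 27.9 with shArf1-1 and 23.7, 23.1 and 24.7 with shArf1-2. Its shArf1-1 libraries overlapped the control libraries while its shArf1-2 libraries lay below them, and the fitted log2 change over both hairpins was -0.21 (SE 0.08).

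Cd9, a tetraspanin of the cell surface, was the one member that was higher after knockdown. It had 47.6, 47.1 and 51.4 FPKM with shlucif, 64.4, 57.6 and 67.6 with shArf1-1 and 56.3, 52.6 and 57.6 with shArf1-2. Every Arf1-deficient library lay above every control library, and the fitted log2 change was 0.22 (SE 0.08). Of the 7 members, 5 were thus lower without overlap in CPM, the count scaled to the library total alone, 1 was higher without overlap and 1 overlapped. Over the 12448 genes tested, all 6 Arf1-deficient libraries lay below all 3 shlucif libraries for 26.7% and above them for 32.5%. The label of lipid-laden macrophage genes thus holds genes of unlike behaviour in these libraries. Of the 7, 4 lost most of their signal, while Cd63, Fabp5 and Cd9 stayed at 69.5%, 89.9% and 122% of the shlucif level.

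**Figure D1:**
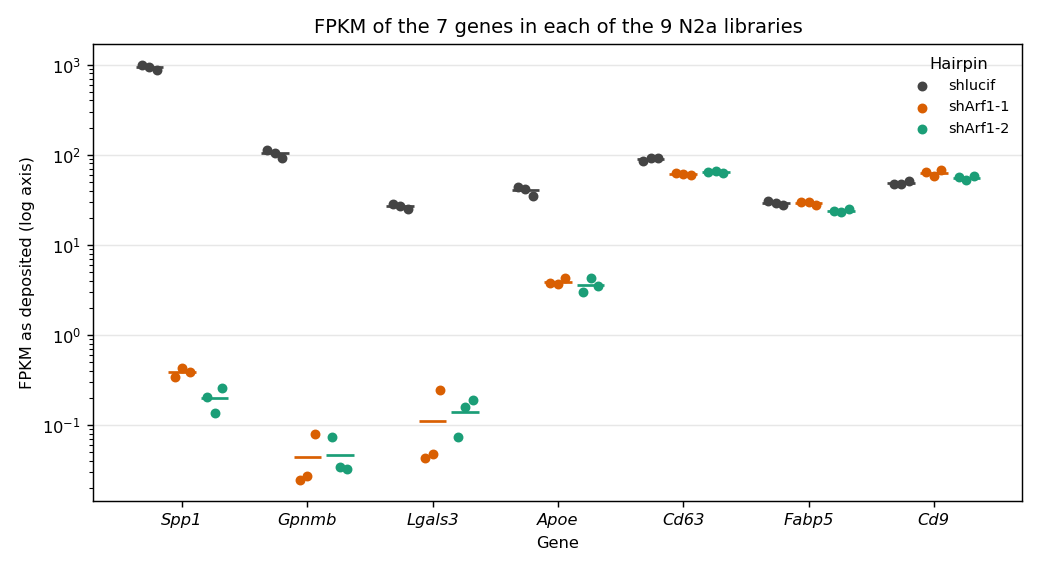
FPKM as deposited (log axis) of the 7 genes, with 1 point per library and a line at the mean of each hairpin group (n = 3). Spp1, Gpnmb and Lgals3 lie far below the shlucif level in all 6 Arf1-deficient libraries, Apoe lies lower by a smaller step, and Cd63, Fabp5 and Cd9 stay within the same decade in all 3 groups.

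The order of the levels changed with the knockdown. With shlucif the mean FPKM ran from Spp1 (935) through Gpnmb (104), Cd63 (90.1), Cd9 (48.7), Apoe (40.2) and Fabp5 (29.2) to Lgals3 (26.8). Gpnmb and Cd63 overlapped there, as did Fabp5 and Lgals3, while the other neighbours were apart. Over the 6 Arf1-deficient libraries the order was Cd63 (62.5), Cd9 (59.3), Fabp5 (26.4), Apoe (3.75), Spp1 (0.294), Lgals3 (0.126) and Gpnmb (0.0451). Cd63 and Cd9 overlapped in these libraries, and so did Spp1 and Lgals3, and Lgals3 and Gpnmb.

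The make-up of the remaining counts is given as a description. Of the counts of Spp1 and Gpnmb together, Spp1 held 68.9%, 69.2% and 70.6% in the shlucif libraries and 60.9% of the 64 counts in the Arf1-deficient libraries. Of the counts of Gpnmb and Lgals3, Gpnmb held 93.4%, 93.1% and 92.8% with shlucif and 55.6% of 45 counts after knockdown, with 57.1% for shArf1-1 and 54.2% for shArf1-2.

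The 2 Arf1 hairpins could be compared with a test, since this difference was not used to choose the members. Only 4 of the 7 had enough counts in the 6 Arf1-deficient libraries themselves, since Spp1, Gpnmb and Lgals3 passed the count filter through shlucif. Of these 4, Fabp5 and Cd9 differed between the hairpins, and Apoe and Cd63 did not pass the threshold of an adjusted p of 0.05 (edgeR's quasi-likelihood test, Benjamini-Hochberg over all 12448 genes). Over all genes tested, 14.4% differed between the hairpins. Fabp5, which carries fatty acids through the cytosol, was lower with shArf1-2 by a log2 difference of -0.30 (SE 0.06, adjusted p = 0.000944), and its shArf1-2 libraries lay below its shArf1-1 libraries in all cases. It passed in each of 18 alternative settings, with adjusted p between 0.000187 and 0.0241. Cd9 was lower with shArf1-2 by a log2 difference of -0.21 (SE 0.06, adjusted p = 0.0257).

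The call for Cd9 passed in 12 of 18 alternative settings, with adjusted p between 0.00312 and 0.172, and was lost both with another method and without single libraries. With all 9 libraries, limma gave an adjusted p of 0.129 on log2(FPKM + 1) and 0.172 on log2(FPKM + 0.1). Its edgeR adjusted p was 0.109 without shArf1-1 replicate 1, 0.135 without shArf1-1 replicate 3, 0.0569 without shArf1-2 replicate 1 and 0.162 without shArf1-2 replicate 2. Its 3 shArf1-2 libraries had 108 to 118 CPM and its shArf1-1 libraries 118 to 138 CPM.

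Apoe differed between the hairpins by -0.16 on the log2 scale (SE 0.14, edgeR adjusted p = 0.514) and Cd63 by 0.05 (SE 0.05, edgeR adjusted p = 0.528). For the 3 genes near 0, the counts are given without a test. Spp1 had 7, 8 and 10 counts with shArf1-1 and 5, 3 and 6 with shArf1-2, and its CPM was lower in each shArf1-2 library than in each shArf1-1 library. Gpnmb had 12 counts over the shArf1-1 libraries and 13 over the shArf1-2 libraries, and Lgals3 had 9 and 11. At 1 to 10 counts per library these genes allow no firm comparison of the hairpins.

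**Figure D2:**
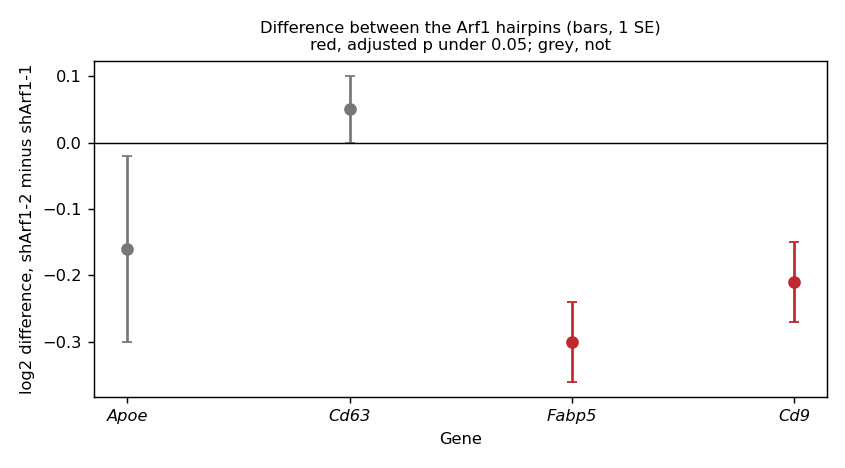
Difference between shArf1-2 and shArf1-1 on the log2 scale for the 4 genes with enough counts in the Arf1-deficient libraries, with bars of 1 SE from the edgeR fit of 9 libraries. The points of Fabp5 (-0.30) and Cd9 (-0.21), in red, passed an adjusted p of 0.05, and those of Apoe (-0.16) and Cd63 (0.05), in grey, did not.

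Markers of macrophages moved together with Spp1, Gpnmb, Lgals3 and Apoe. Of 19 macrophage and microglia markers, 15 were tested, 14 fell and 1 rose (edgeR, adjusted p under 0.05). The 14 that fell had at most 10 counts in every Arf1-deficient library and entered the test through their level with shlucif, so that they could hardly have moved another way, and their number is not set against other genes. The summed level of the 19 genes was 208 to 250 CPM in the shlucif libraries and 5.19 to 8.12 CPM in the Arf1-deficient libraries. Most of the remainder was Tmem119, which rose by 1.28 on the log2 scale (SE 0.20, edgeR adjusted p = 1.82e-05). Without it, a gene set aside after its values were seen, the 18 others summed to 205 to 248 CPM and 0.984 to 1.55 CPM, and 0.549% of the shlucif level was left (exact 95% counting interval 0.447 to 0.667%).

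The lineage factor Spi1 (PU.1) had 162, 138 and 139 counts with shlucif and 0 in all 6 Arf1-deficient libraries. The leukocyte phosphatase Ptprc (CD45) had 175 to 241 counts with shlucif and was at 0 in 5 of the 6 Arf1-deficient libraries, with 3 counts in the other. Csf1r, the receptor for the macrophage growth factor CSF1, went from 111 to 147 counts with shlucif to between 0 and 2. Lyz2, the lysozyme of macrophages, went from 1078 to 1237 counts to between 3 and 10. In contrast, the microglial genes Cx3cr1 and P2ry12 had at most 2 counts in any library. In all 6 Arf1-deficient libraries, 9 of the 19 genes were at 0. Cx3cr1 and P2ry12 are among these 9, and so are C1qa and Aif1, which had at most 1 and 5 counts with shlucif. The part of these markers in the levels of the 7 genes was not tested.

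The shlucif libraries were also compared with each other for the members and these markers, in a pair of libraries picked after their values were seen. The CPM in shlucif replicate 1 over that in replicate 3 was 1.14 for Spp1, 1.23 for Gpnmb, 1.12 for Lgals3 and 1.27 for Apoe. For the 10 macrophage markers with at least 100 counts in each shlucif library it lay between 1.11 and 1.36. Over 9578 genes with as many counts the median ratio was 1.00 and the 5th to 95th percentile 0.828 to 1.19. Spp1 and Lgals3 lay within that range, and Gpnmb and Apoe lay above it. Cd63 (0.917) and Cd9 (0.926) went the other way, and Fabp5 was at 1.10.

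Of the other marker lists, those of sympathetic neuroblasts, the lineage of N2a cells, were present throughout. Of 12 such genes 11 were tested, 10 rose and 0 fell after knockdown, with a median log2 change of 0.70. Over all genes tested, 31.6% rose and 32.9% fell. Hand2, one of the 10, overlapped in CPM and passed with neither shArf1-1 nor shArf1-2 alone (edgeR adjusted p = 0.0718 and 0.0945). The summed level of the list went from 1532 to 1594 CPM with shlucif to 2482 to 2777 CPM. Th, the enzyme of catecholamine synthesis, did not pass and had 12 to 19 counts in every library. Of 6 osteoclast markers 2 were tested and 1, Ctsk, fell. Ctsk entered the test through shlucif, so nothing is read from that call. The list summed to 39.5 to 44.8 CPM with shlucif and 0.385 to 1.77 CPM after knockdown. With shlucif most of this was the collagen-cutting protease Ctsk, with 501 to 556 counts per library, which went to 1 to 6 counts. After knockdown most was Ocstamp, with 89 of the 109 counts left, whereas Acp5 and Calcr were at or near 0 in all 9 libraries.

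Fewer genes were measured in the remaining lists. Their counts are too small to be read against the 32.9% of all genes tested that fell. Of 6 fibroblast markers 3 were tested and 1 fell, with sums of 14.0 to 15.8 CPM against 9.11 to 11.9. Of 4 endothelial markers 3 were tested and 2 fell, with sums of 25.4 to 27.7 CPM against 11.6 to 16.3. One of 4 astrocyte markers was tested and fell, with sums of 2.47 to 3.15 CPM against 0.297 to 1.97. Of 5 oligodendrocyte and Schwann cell markers 2 were tested and 1 fell, with sums of 38.7 to 39.5 CPM against 28.8 to 35.9. None of 3 lymphocyte markers had enough counts to be tested, and their sum was at most 0.449 CPM.

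**Figure D3:**
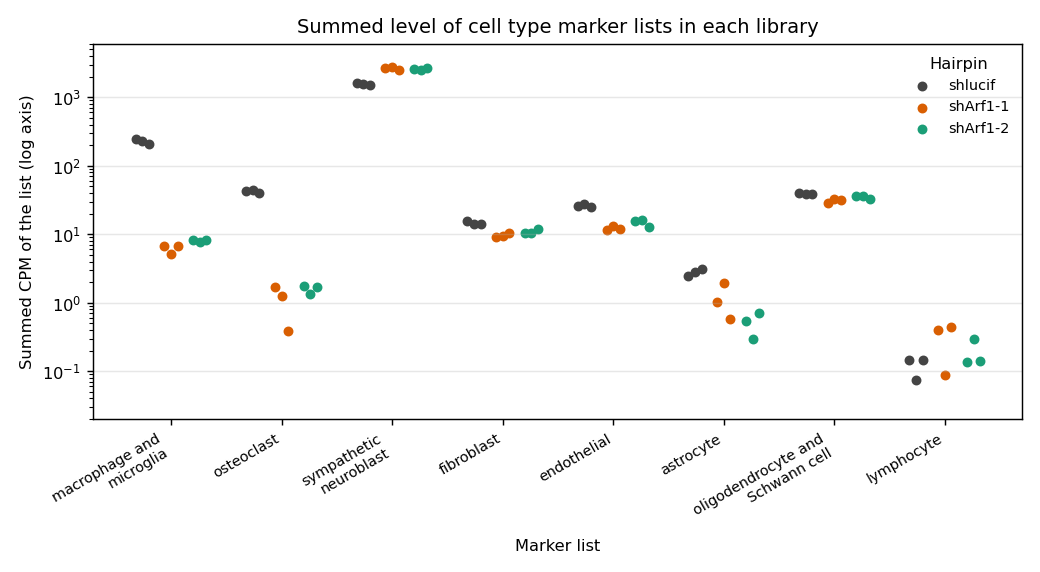
Summed CPM (log axis) of 8 lists of cell type markers, with 1 point per library coloured by hairpin. The macrophage and microglia list drops from 208 to 250 CPM with shlucif to 5.19 to 8.12 CPM in the Arf1-deficient libraries and the osteoclast list drops as well, while the sympathetic neuroblast list lies higher after knockdown.

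Genes that work with the members in lipid-laden macrophages were then followed in 10 lists of 116 companion genes, of which 80 had enough counts to be tested. Of these, 61 fell and 6 rose in the Arf1-deficient libraries (edgeR, adjusted p under 0.05), with a median log2 change of -1.10. Of the 61, 14 had at most 10 counts in every Arf1-deficient library and entered the test through shlucif. This bears on the counts and medians of the lists below. Nothing is read from the adjusted p values of these 14, which include Lpl, Ctss, Irf8, Cd44, Fabp4, Cd53 and Cd37. Of the other 66, 47 fell and 6 rose, with a median log2 change of -0.84, where 32.9% of all genes tested fell and 31.6% rose with a median of 0.00. Among these 66, Pmel and Tspan5, which fell, also entered through shlucif. Tspan8, which rose, entered through the Arf1-deficient libraries. Against shlucif alone, shArf1-1 lowered 64 and raised 6 of the 80, where 34.4% and 33.1% of all genes fell and rose, and shArf1-2 lowered 62 and raised 5, where 32.6% and 30.9% did. These last comparisons share the shlucif libraries. They also include the 14 genes that entered the test through shlucif and could hardly have risen. Their counts are therefore not read against those shares. The lists were chosen with earlier results of these data known. Clec7a was not analysed here.

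The receptors for lipid and debris come first. Of 11 listed, 7 were tested, 6 fell and 0 rose, with a median log2 change of -7.74. Of the 7, 5 had at most 10 counts in every Arf1-deficient library and entered the test through shlucif. Nothing is therefore read from the size of this median or from the tests of these 5. Axl, which kept more counts, fell by a log2 change of -1.50 (SE 0.09). Trem2, the receptor through which microglia and macrophages sense lipids, had 314, 254 and 250 counts with shlucif and 1 count in all 6 Arf1-deficient libraries together, a ratio of 1636 (exact 95% counting interval 293 to 64678, edgeR adjusted p = 3.55e-15). The scavenger receptor Cd36 had 105 to 136 counts with shlucif and 1 count after knockdown in all (edgeR adjusted p = 1.41e-12). Msr1, a scavenger receptor for modified lipoproteins, went from 84 to 104 counts to 2 in all (edgeR adjusted p = 3.32e-11). Cd68, a lysosomal glycoprotein of macrophages, went from 849 to 1050 counts to between 2 and 7 (edgeR adjusted p = 9.96e-18). Scarb1, the receptor for high density lipoprotein that many cells make, did not pass with both hairpins together, at 95.4% of the shlucif level. It was lower with shArf1-1 (log2 change -0.25, edgeR adjusted p = 0.000194), while shArf1-2 gave -0.02 (edgeR adjusted p = 0.733), and the hairpins differed (0.23, edgeR adjusted p = 0.00485).

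Of 11 genes for the breakdown, storage and export of lipid, 10 were tested, 9 fell and 0 rose, with a median log2 change of -1.35. Lipoprotein lipase (Lpl) had 561, 584 and 570 counts with shlucif and 1 count in the 6 Arf1-deficient libraries together (edgeR adjusted p = 9.96e-18). The others named here fell to a part of their level. The cholesterol acyltransferase Soat1 fell to 27.2%, the droplet coat protein Plin3 to 29.9% and the cholesterol exporter Abca1 to 37.1% of shlucif, with log2 changes of -1.94 (SE 0.07), -1.80 (SE 0.09) and -1.49 (SE 0.13). Dgat1, which makes triglyceride, did not pass with both hairpins together, at 91.7% of the shlucif level, and was lower with shArf1-1 (log2 change -0.30, edgeR adjusted p = 0.00408).

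All 11 lysosomal genes were tested and all fell, with a median log2 change of -0.93. Cathepsin S (Ctss), a protease of antigen-presenting cells, had 649, 564 and 573 counts with shlucif and 0 in all 6 Arf1-deficient libraries, which is at least 196-fold lower at a floor of 3 counts per library (edgeR adjusted p = 3.18e-14). The broadly made cathepsins Ctsl and Ctsb fell to 24.9% and 28.7% of shlucif, with log2 changes of -2.07 (SE 0.05) and -1.86 (SE 0.05). Progranulin (Grn), a secreted protein that serves lysosomes, fell to 35.3%, a log2 change of -1.56 (SE 0.06).

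Of 13 transcription factors listed, 11 were tested, 9 fell and 0 rose, with a median log2 change of -1.28. Irf8, a factor of the myeloid lineage, had 118, 100 and 140 counts with shlucif and 0 to 3 per library after knockdown (edgeR adjusted p = 1.07e-11). Bhlhe40, a repressor of the clock family, fell to 29.7% (log2 change -1.82, SE 0.09). Mitf, which is known to drive Gpnmb in melanocytes and osteoclasts, had 82, 115 and 100 counts with shlucif, 33, 20 and 36 with shArf1-1 and 46, 35 and 43 with shArf1-2, a log2 change of -1.55 (SE 0.19, edgeR adjusted p = 1.07e-06). Runx2, the bone factor known to bind the Spp1 promoter, fell by a log2 change of -1.40 (SE 0.20, edgeR adjusted p = 5.02e-06). Tfe3, a relative of Mitf, and the oxysterol receptor Nr1h3 did not pass, at 105% and 94.4% of the shlucif level.

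Among the receptors of Spp1 and related matrix proteins, 8 of 13 were tested, 6 fell and 1 rose, with a median log2 change of -1.13. Cd44, a receptor for osteopontin and hyaluronan, had 346, 328 and 272 counts with shlucif and 7 counts after knockdown in all (edgeR adjusted p = 8.52e-15). The integrin chains Itga5 and Itgb3 fell to 22.5% and 29.4% of shlucif, with log2 changes of -2.21 (SE 0.09) and -1.83 (SE 0.07). Itga8, an integrin chain that also binds osteopontin, was the one that rose, from 43 to 55 counts to between 82 and 131 (log2 change 1.01, SE 0.17, edgeR adjusted p = 4.53e-05). Itgb5 did not pass with both hairpins together, at 99.4% of the shlucif level, where a log2 change of -0.22 with shArf1-1 (edgeR adjusted p = 0.00299) was averaged with 0.06 for shArf1-2 (edgeR adjusted p = 0.419). The hairpins differed for it by 0.28 (edgeR adjusted p = 0.00229). The relatives of Spp1 in the same gene cluster, Ibsp, Dmp1, Dspp and Mepe, had at most 2 counts in any library.

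Of the 3 genes tied to Gpnmb, its relative Pmel and its binding partner syndecan-4 (Sdc4) fell and the sheddase Adam10 did not pass, with a median log2 change of -1.61. Sdc4 had 144, 105 and 111 counts with shlucif and 7 to 22 after knockdown, 13.6% of the level (log2 change -2.92, SE 0.24). Pmel was low throughout, with 20 to 33 counts with shlucif and 5 to 13 after knockdown (log2 change -1.61, edgeR adjusted p = 0.00042). Adam10 stood at 106%.

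Of the 9 apolipoproteins and Apoe receptors, 4 were tested, 2 fell and 0 rose, with a median log2 change of -0.64. Lrp1, the large endocytic receptor for Apoe, fell to 33.8% (log2 change -1.63, SE 0.09) and clusterin (Clu), an apolipoprotein with chaperone activity, fell to 44.3% (log2 change -1.24, SE 0.12). The receptor Lrp8 did not pass with both hairpins together, at 101%, but was lower with shArf1-2 (log2 change -0.18, edgeR adjusted p = 0.0079) and differed between the hairpins by -0.26 (edgeR adjusted p = 0.00201). Apoc1, Apoc2 and Apoc4, the neighbours of Apoe in its gene cluster, had at most 3 counts in any library.

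The relatives of Lgals3, Fabp5, Cd63 and Cd9 varied within each family. Of 6 other galectins and the galectin-binding protein Lgals3bp, 5 genes were tested, 4 fell and 0 rose, with a median log2 change of -1.19. Lgals9 fell to 17.6%, Lgals3bp to 35.4%, Lgals8 to 45.7% and Lgals1, at 1391 ± 57.5 FPKM (SD, n = 3) the most abundant of them with shlucif, to 62.5%. Lgals4 did not pass, at 125%. Of 13 fatty acid and retinoid binding proteins 3 were tested, 2 fell and 0 rose, with a median log2 change of -1.94. Fabp4, the form of adipocytes and macrophages, had 236, 225 and 258 counts with shlucif and 0 in the 6 Arf1-deficient libraries, at least 78.9-fold lower at the floor of 3 counts per library (edgeR adjusted p = 2.68e-12), and Fabp3, the form of heart muscle, fell to 27.0%. Crabp2 did not pass, at 88.3%.

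Of 25 other tetraspanins 18 were tested, 10 fell and 5 rose, with a median log2 change of -0.21. The leukocyte tetraspanin Cd53 had 131 to 140 counts with shlucif and 1 count after knockdown in all (edgeR adjusted p = 2.84e-13), and Cd37, another of leukocytes, had 67 to 80 counts and then 0 to 2 (edgeR adjusted p = 2.03e-10). Cd82 and Tspan14 fell to 55.2% and 64.4%. The 5 that rose, as Cd9 was higher, were Tspan2 (log2 change 0.57), Tspan18 (0.53), Tspan13 (0.26), Tspan7 (0.17) and Tspan8 (1.28). Tspan8 had only 3 to 15 counts per library and entered the test through the Arf1-deficient libraries, so nothing is read from its rise. Tspan3, Tspan31 and Tspan33 did not pass, at 115%, 102% and 98.8%, though Tspan3 was higher with shArf1-1 (log2 change 0.22, edgeR adjusted p = 0.00608).

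**Figure D4:**
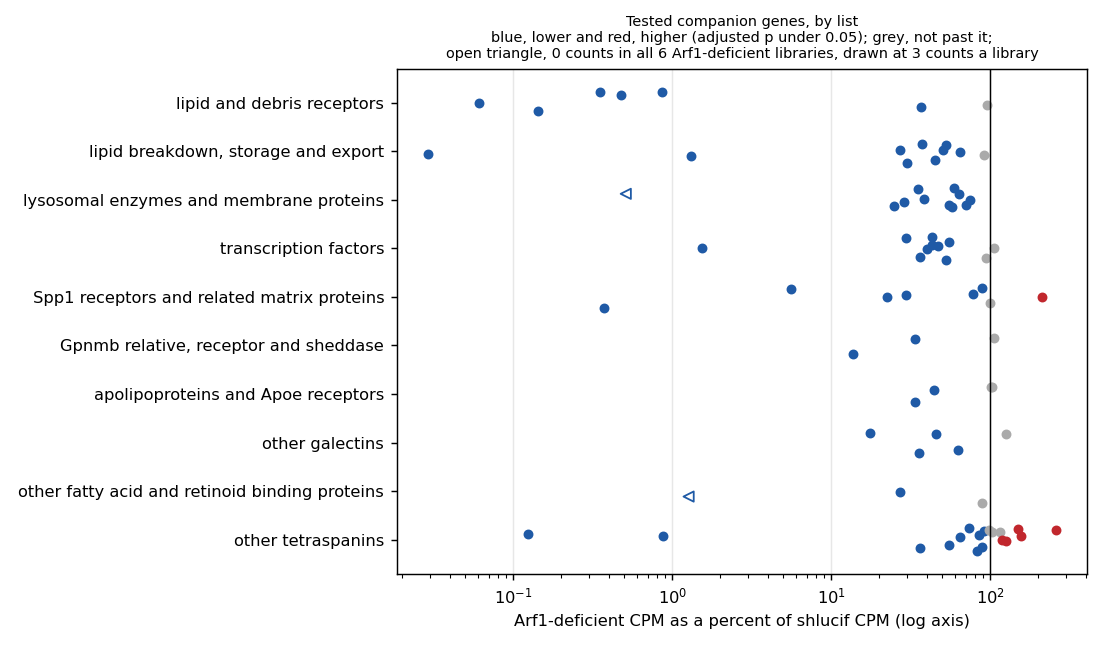
Level of each of the 80 tested companion genes in the Arf1-deficient libraries as a percent of its shlucif level (log axis, CPM), by list. Trem2, Cd36, Lpl and Cd53 lie under 1%, most lysosomal genes lie between 24.9% and 74.9%, and tetraspanins fall on both sides of 100%.

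Of the 80 companion genes, 15 differed between the hairpins (edgeR, adjusted p under 0.05), 3 of them lower and 12 higher with shArf1-2. Over all genes tested the share was 14.4%. Of these genes, 6 are among the 33 named above by the rule of size, and they were Plin3 (log2 difference 0.35, SE 0.07), Abca1 (-0.43, SE 0.10), Grn (0.17, SE 0.06), Lrp1 (0.30, SE 0.07), Clu (0.46, SE 0.07) and Cd82 (0.37, SE 0.09). All 33 passed with each hairpin in the same direction as with both together.

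The genes whose profiles lay nearest to each member over the 9 libraries were taken from 10636 tested genes with at least 5 CPM in their highest group, by the root mean square (RMS) difference of centred log2 CPM. The same 5 genes came nearest to both Spp1 and Gpnmb. These were Ctss, Lcp1, Plau, Lpl and Ccl3, at RMS differences of 1.51 to 1.61 from Spp1 and 1.17 to 1.32 from Gpnmb, against medians of 5.38 and 5.07 over the genes compared. Lcp1 is the actin bundler of leukocytes, Plau the urokinase protease and Ccl3 a chemokine of macrophages. With shlucif all 5 reached 473 to 888 counts per library, and no Arf1-deficient library held more than 2. The likeness covers all 9 libraries, so it largely follows the contrast of shlucif with knockdown that chose Spp1 and Gpnmb. The 5 genes also entered the test through shlucif. Nothing is therefore read from the shared neighbours, nor from those of Lgals3 and Apoe below.

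Nearest to Lgals3 were Trem2, Fabp4 and Ptprc (RMS 0.438 to 0.461). Nearest to Apoe were Lpxn, Plek and Arhgap9 (RMS 0.317 to 0.328), genes of signalling and adhesion in blood cells, with Plek, for example, at 810 to 926 counts with shlucif and 42 to 71 after knockdown. The small changes of the other 3 members had many near neighbours. Gpx1, Fkbp9 and Calu were nearest to Fabp5 (RMS 0.0356 to 0.0533), Sel1l3, Wls and Mapk6 to Cd63 (0.0320 to 0.0414) and Arih2, Arf4 and Crk to Cd9 (0.0405 to 0.0470), against medians of 0.268, 0.339 and 0.239.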

How the data were processed

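RNA was taken from 9 N2a libraries, 3 each with shlucif, shArf1-1 and shArf1-2. Poly(A) RNA was fragmented and primed at random, per the labels. The authors deposited 1 table with a whole-number read count and an FPKM value per gene and library, and the submitters' notes name mm10. The aligner, the counter and the use of strand are not given in the sources used here. The deposited FPKM equalled count over length and library total within 1.9e-05 percent. Groups came from the sample labels, and columns whose name has a 2 after the gene were read as shArf1-2. There were 0 unused sample columns. The members and all lists were chosen with earlier results of these data known.

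Counts were tested with edgeR 4.0.16 (TMM, filterByExpr, quasi-likelihood, Benjamini-Hochberg, threshold 0.05) in R 4.3.3, in a fit of 2 groups for Arf1-deficient against shlucif and of 3 groups for single hairpins, after a test on simulated data. An SE is the log2 change over the root of the F value, and log2 CPM used a prior count of 2. Percent of shlucif is the ratio of pooled counts over library totals, with an exact conditional Poisson interval. Companion genes were named by adjusted p, at least 5 CPM, no overlap and size, up to 4 per list, and 5 likeness neighbours were named for Spp1 and Gpnmb and 3 for the others. Alternatives were DESeq2 1.42.0, limma 3.58.1 on log2(FPKM + 1) and log2(FPKM + 0.1), other scalings and filters, a replicate block and leaving out each library. The values of 1 companion gene are not reported here.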

Additional observations from a re-analysis of the deposited data

Results flagged for a closer look

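The response to the Arf1 hairpins differed between shArf1-2 and shArf1-1 for 8 genes, in the edgeR test of that difference. They were counted among the 7 members and the 33 companion genes named by the rule of size. Between the hairpins, 14.4% of all 12448 genes tested differed, so nothing is read from the number 8. Cd9, 1 of the 8, passed in only 12 of 18 alternative settings. Scarb1, Itgb5, Lrp8, Tspan2 and Tspan7, given above for other reasons, also passed and are outside this count. On the log2 scale, as shArf1-2 minus shArf1-1, Fabp5 differed by -0.30, Cd9 by -0.21 and Abca1 by -0.43, all 3 lower with shArf1-2. Plin3 differed by 0.35, Grn by 0.17, Lrp1 by 0.30, Clu by 0.46 and Cd82 by 0.37, all 5 higher with shArf1-2. With 3 libraries per group, single libraries were not tested for standing apart.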

How the results depend on the processing

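Over all 582 alternative values, the 33 named companion genes kept their direction and stayed past the threshold. They had been named for passing with a large change and no overlap. Those with at most 10 counts in every Arf1-deficient library also entered the test through shlucif. This agreement was therefore largely set in advance, and nothing is read from it. Named genes with fewer than 10 counts in some library, such as Trem2 and Ctss, have no value where 10 in every library were required. The number of companion genes changed in the Arf1-deficient libraries was 50 to 70 over 18 alternatives, against 67. Members differing between the hairpins numbered 2, and 1 with limma on log2(FPKM + 1) and 1 to 2 when a library was left out. With limma on log2(FPKM + 0.1) the number stayed at 2, but Spp1 (adjusted p = 0.0247), which rests on 3 to 10 counts per library, took the place of Cd9 (adjusted p = 0.172). Companion genes differing between the hairpins numbered 15, and 9 with limma on log2(FPKM + 1) and 8 on log2(FPKM + 0.1). Macrophage markers changed numbered 15, and 1 when at least 10 counts in every library were required, since only Tmem119 was then tested. Members without overlap numbered 6, and 5 to 7 over 13 alternatives, of which CPM after TMM scaling and FPKM were chosen after seeing the data. The pseudocount made the fitted changes of Spp1 and Gpnmb smaller in limma. They were -11.69 and -11.13 in edgeR and -9.50 and -6.64 with limma on log2(FPKM + 1). With library size in place of TMM the median over all genes moved to 0.07, and no member changed direction. Same-numbered libraries did not deviate together (r from -0.082 to 0.094 over 9 pairs). This shows no shared shift, but it cannot show that such libraries were prepared apart, and the labels do not say. With the replicate block 16 companion genes differed between the hairpins, 67 changed after knockdown and 2 members differed. Depth limits Spp1, Gpnmb and Lgals3 to a few counts in each Arf1-deficient library.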
